A study of Mus musculus with 32 samples.

Results

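The proteasome subunit genes were taken as the protein-coding mouse genes whose symbol reads Psm, a letter from a to g and a number, which gave 48 genes among the 55401 gene identifiers counted. They encode 7 subunits of the alpha ring and 7 of the beta ring of the 20S core, 3 inducible subunits of the immunoproteasome, 2 tissue-restricted core subunits, 6 ATPases and 3 other subunits of the 19S base, 8 subunits of the 19S lid, 7 assembly chaperones, and 5 alternative caps or regulators. The 26S proteasome breaks down proteins that carry ubiquitin chains. Its core is a barrel whose inner beta rings hold the proteolytic sites and whose outer alpha rings gate the entry, and the 19S particle recognises, unfolds and feeds in the substrate. In skeletal muscle the system degrades much of the myofibrillar protein, and in cells exposed to interferon the inducible subunits replace the standard proteolytic ones.

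Transcripts were counted by 3′ RNA sequencing in C57BL/6 mice of 200 days of age. COX10 KO mice lack, in skeletal muscle, the gene for the assembly factor COX10 of cytochrome c oxidase. Both floxed Cox10 alleles were recombined by Cre driven from Myl1, a gene of skeletal muscle fibres, so that liver and hypothalamus were not targeted. Calf muscle and liver gave 6 COX10 KO and 6 CTL libraries each, labelled as 3 females and 3 males per genotype, and hypothalamus 4 COX10 KO and 4 CTL libraries labelled male. The study's methods speak of males alone unless otherwise stated, and the labels were followed here. The labels do not say which allele or transgene the CTL mice carried, nor whether libraries of different tissues came from the same mice.

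Libraries held between 434494 and 22321322 counts. In muscle the COX10 KO libraries were deeper, with a median of 6027218 counts, against 2453792 counts in CTL muscle, and the library CTL muscle 2 was the shallowest of all 32. That library also held 1648 CPM (counts scaled to library size) of the hepatocyte transcript Alb, where the other CTL muscle libraries held 17.7 to 99.8 CPM. Acta1, the skeletal muscle actin, was at 19870 CPM or more in every muscle library. Alb was at 20550 CPM or more in every liver library, with 289.5 CPM of Acta1 in COX10 KO liver 6. The lowest Alb level was that of COX10 KO liver 3, a library of 674311 counts. Alb in the other liver libraries was at 46290 to 146400 CPM. In liver 2 CTL libraries (1 and 4) did not match their labelled sex by Xist and Y-linked counts. Cox10 itself averaged 113.4 CPM in COX10 KO muscle and 109.8 CPM in CTL muscle (adjusted p = 0.91 in edgeR's quasi-likelihood test), which does not test the deletion, because a 3′ read need not cover the deleted part. Myl1 fell by 1.06 on the log2 scale in COX10 KO muscle (adjusted p = 0.0084, edgeR's quasi-likelihood test). By the study's methods the Cre line is an allele of Myl1 itself, and its part in this fall was not tested.

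Levels are given as CPM, the share of counts over a library size scaled by trimmed means of M values within each tissue. Reads come from the 3′ end, so a count does not grow with transcript length. Levels of different genes can be set beside each other only roughly, since 9 members share a strand with another annotated gene. Shared reads may be left uncounted there, which was not tested. Rankings of genes by abundance below are rankings of CPM. A gene was called where edgeR's quasi-likelihood test, run over all genes of a tissue and with a sex term for muscle and liver, gave a Benjamini-Hochberg adjusted p under 0.05. In bulk tissue, fewer cells of a type and less RNA per cell cannot be told apart. The labels do not say that each library of a group is from a mouse of its own, so p-values measure the spread between these libraries, which may be technical.

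In COX10 KO muscle 11 of the 45 tested proteasome genes rose and 0 fell. That is 24.4% of the tested members higher, where 6.9% of all 11636 tested genes were called higher and 7.43% lower. The 11 were the assembly chaperones Psmg4, Psmg2 and Psmd10, the core subunits Psma2, Psmb1 and Psmb5, the ATPases Psmc2 and Psmc6, the lid subunit Psmd3, and the regulators Psme3 and Psmf1. The median log2 fold change of the 45 was 0.31, with 30 positive and 15 negative values. Over all tested genes the median was -0.03, and 48.05% had a positive value. In 5 members (11.1%) every COX10 KO library lay above every CTL library, which was so for 4.08% of all tested genes, and in 0 members every COX10 KO library lay below every CTL library (2.31% of all tested genes). The count of 11 was the same without CTL muscle 2, but it was 5 without CTL muscle 6, 6 without CTL muscle 3 or without COX10 KO muscle 2, and 7 without CTL muscle 5. With each sex tested alone, 3 libraries against 3, it was 1 in females and 0 in males. Calls over all genes changed as well. Higher calls numbered 803 of 11636 genes in the main fit, 990 of 11977 without CTL muscle 2 and 482 of 12174 without CTL muscle 6. They were 618 of 12169 without CTL muscle 3, 607 of 11738 without COX10 KO muscle 2 and 556 of 12150 without CTL muscle 5. In females alone they were 163 of 11208, and in males alone 157 of 10542. Of 12 fits that each left out 1 library, all 12 called Psmb1, Psmc6, Psmg2 and Psmg4, while Psmc2 and Psme3 were called in 10, Psmd3 in 9, Psmf1 in 8, Psma2 in 5, Psmd10 in 4 and Psmb5 in 3.

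**Figure D1:**
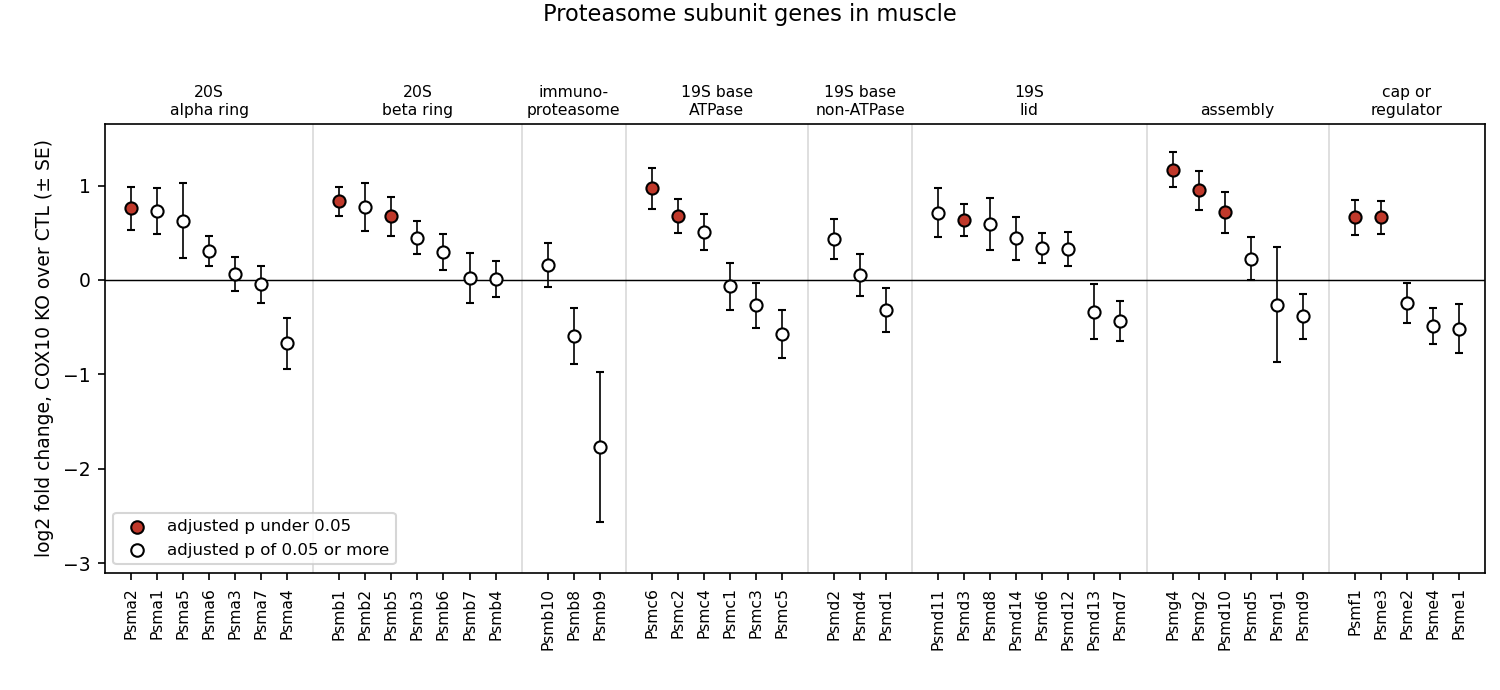
Log2 fold change of each of the 45 tested proteasome genes in muscle, COX10 KO over CTL, with its standard error (vertical axis), ordered by class along the horizontal axis. Filled points are the 11 genes with an adjusted p under 0.05, all above 0 and lying between 0.64 and 1.17.

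Of the 11, the assembly gene Psmg4 had the largest log2 fold change. This gene (PAC4, a chaperone that helps to build the alpha ring) lies on chromosome 13 at 34162964 to 34178173 (GRCm38, plus strand), and Psmb5 (beta5, the chymotrypsin-like proteolytic subunit) on chromosome 14 at 54614119 to 54618022 (minus strand). The 250 bases before the RefSeq transcript start of these genes (GRCm38.p6) are shown as the upstream sequence of the largest rise and of the only standard proteolytic subunit that was called. Capitals mark matches to TGACNNNGC or TGAGNNNGC, searched on both strands, which are the letters of the antioxidant response element bound by factors of the NFE2L family.
Psmg4, chr13:34162714-34162963, plus strand: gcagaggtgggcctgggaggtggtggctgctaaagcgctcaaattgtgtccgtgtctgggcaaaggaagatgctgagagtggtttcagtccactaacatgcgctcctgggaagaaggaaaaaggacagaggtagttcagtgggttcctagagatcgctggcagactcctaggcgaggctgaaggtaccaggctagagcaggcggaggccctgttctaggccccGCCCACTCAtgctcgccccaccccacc
Psmb5, chr14:54617996-54618245, minus strand: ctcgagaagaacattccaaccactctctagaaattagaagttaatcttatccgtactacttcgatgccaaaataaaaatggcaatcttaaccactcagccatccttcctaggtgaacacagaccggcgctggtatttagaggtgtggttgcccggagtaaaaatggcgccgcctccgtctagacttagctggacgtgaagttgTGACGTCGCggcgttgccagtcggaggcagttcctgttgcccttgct

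The single match in the Psmg4 window began 27 bases before the transcript start and lay on the other strand, and the single match in the Psmb5 window began 47 bases before the start. The same 250 bases of 2 other called genes are not shown. Psmc6 held 2 matches, which began 241 and 227 bases before the start, and Psme3 held 0. RefSeq windows of 300 bases (250 before to 50 after the start) were at hand for 40 of the 48 members. TGACNNNGC was found in 6 of these (15.0%), and TGAGNNNGC in 12 (30.0%), where 14.0% and 19.8% of all 27025 gene symbols with a window held them. Either of the pair was found in 16 members (40.0%), beside 30.8% of all symbols, and in 4 of the 8 called members that had a window. CCAAT, the core of the NF-Y motif, was found in 14 members (35.0%), beside 41.1% of all symbols. A match describes letters in a window and is not a bound site.

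Among the assembly chaperones 3 of 6 tested members rose and 0 fell. Psmg4 had 20.7, 26.1 and 30.7 CPM (lowest, median and highest of 6) in COX10 KO muscle, against 9.23, 11.9 and 13.1 CPM in CTL muscle. Every COX10 KO library thus lay above every CTL library, and the log2 fold change was 1.17 ± 0.19 (SE, adjusted p = 0.00096, edgeR's quasi-likelihood test). Psmg2 (PAC2, the partner of PAC1 in the chaperone pair of the alpha ring) ranged from 51.3 to 74.5 CPM with a median of 67.6 CPM in COX10 KO muscle, and from 19.1 to 45.7 CPM with a median of 31.2 CPM in CTL muscle. Its groups did not overlap either, with a log2 fold change of 0.95 ± 0.21 (SE, adjusted p = 0.0072, edgeR's quasi-likelihood test). Psmd10 (gankyrin, a chaperone of the 19S base) was less abundant, at 15.0, 18.0 and 20.7 CPM in COX10 KO muscle and 7.64, 11.3 and 16.6 CPM in CTL muscle. The highest CTL library reached into the COX10 KO range, and Psmd10 rose by a log2 fold change of 0.72 ± 0.22 (SE, adjusted p = 0.039, edgeR's quasi-likelihood test).

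The other assembly genes did not pass the test. Psmd5, a further base chaperone, had a log2 fold change of 0.23, Psmd9 (p27) -0.39 and Psmg1 (PAC1) -0.26 with an SE of 0.61. Psmg1 averaged 3.45 CPM in COX10 KO muscle and 4.92 CPM in CTL muscle and was the least abundant tested assembly gene. Psmg3 (PAC3) had 0 counts in all 32 libraries, which together held 157874140 counts, so that a level of up to 0.019 CPM is allowed. Gm26938 is annotated on the same strand over Psmg3, and reads in a shared stretch may have been left uncounted, which was not tested. Summed over the class, assembly genes took 123.5 to 151.8 CPM in COX10 KO muscle and 76.1 to 96.04 CPM in CTL muscle, a ratio of means of 1.58 with no overlap between the groups.

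**Figure D2:**
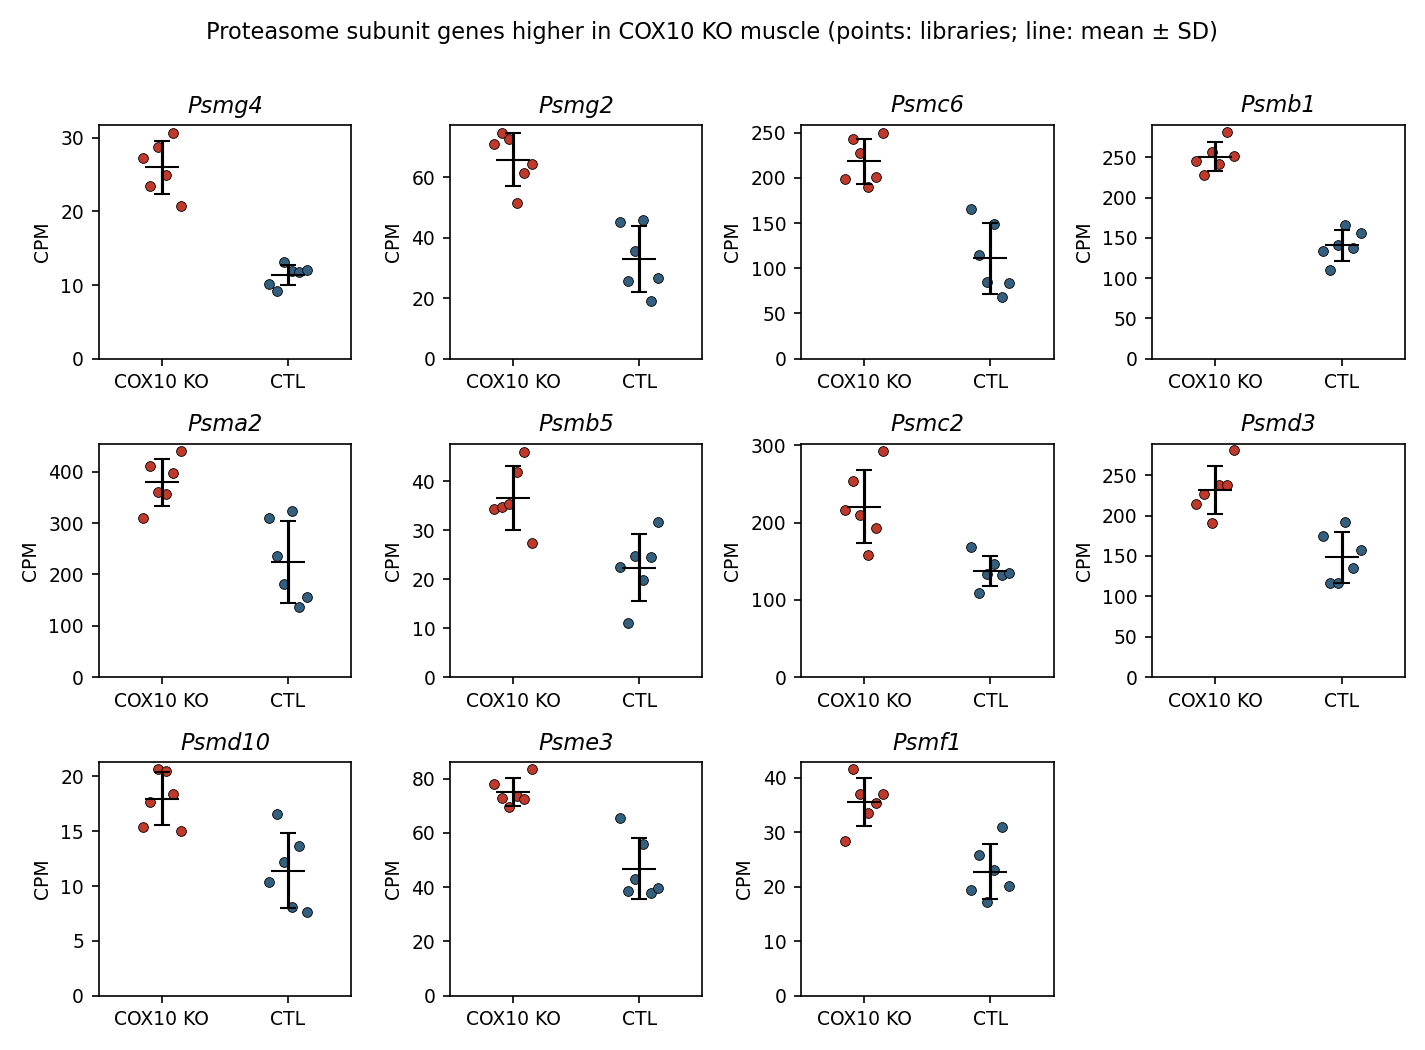
CPM of the 11 called proteasome genes in muscle, 1 panel a gene, with COX10 KO left of CTL. Points are the 6 libraries of each genotype and lines the mean with its SD. Psmg4, Psmg2, Psmc6, Psmb1 and Psme3 show no overlap between genotypes.

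In the beta ring, all 7 tested genes had a positive log2 fold change, which was so for 48.05% of all tested genes. Those of Psmb4 (0.01) and Psmb7 (0.02) were close to 0 and changed sign in other fits. Of the 7, 2 passed the test (28.6%), beside 6.9% of all tested genes called higher. Psmb1 (beta6, a structural subunit) had 228.3, 248.3 and 281.7 CPM (lowest, median and highest) in COX10 KO muscle, against 110.7, 139.3 and 165.8 CPM in CTL muscle. Its groups were well apart, with a log2 fold change of 0.83 ± 0.15 (SE, adjusted p = 0.0023, edgeR's quasi-likelihood test). Psmb5 had 27.5, 35.1 and 46.0 CPM in COX10 KO muscle and 11.1, 23.5 and 31.6 CPM in CTL muscle. Of the COX10 KO libraries, 5 of 6 lay above all CTL libraries, and Psmb5 rose by a log2 fold change of 0.68 ± 0.21 (SE, adjusted p = 0.040, edgeR's quasi-likelihood test). Psmb5 shares its strand with the annotated microRNA gene Mir686.

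The remaining standard proteolytic subunits were more abundant and did not pass the test. Psmb6 (beta1, caspase-like) had 147.2, 176.5 and 241.3 CPM in COX10 KO muscle and 88.6, 158.1 and 176.7 CPM in CTL muscle (log2 fold change 0.30, adjusted p = 0.30 in edgeR's quasi-likelihood test). Psmb7 (beta2, trypsin-like) had 73.4, 187.5 and 223.7 CPM in COX10 KO muscle and 116.1, 140.0 and 258.7 CPM in CTL muscle, with a log2 fold change of 0.02 and wide overlap. Psmb5 was thus the least abundant of the standard proteolytic subunits in both genotypes. Among the structural subunits, log2 fold changes of 0.77 for Psmb2, 0.45 for Psmb3 and 0.01 for Psmb4 did not pass (adjusted p = 0.055, 0.099 and 0.98, edgeR's quasi-likelihood test).

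In the alpha ring 1 of 7 members rose (14.3%), beside 6.9% of all tested genes called higher. A count of 1 does not set this ring apart. Psma2 (alpha2) had 310.3, 379.2 and 439.9 CPM in COX10 KO muscle, where it was the most abundant proteasome gene, and 137.1, 208.9 and 323.6 CPM in CTL muscle. The 2 highest CTL libraries, 1 and 4, reached the lower end of the COX10 KO range, and the log2 fold change was 0.76 ± 0.23 (SE, adjusted p = 0.035, edgeR's quasi-likelihood test). Psma2 shares its strand with the annotated gene AW209491. The other log2 fold changes in this ring were 0.73 for Psma1, 0.63 for Psma5, 0.31 for Psma6, 0.06 for Psma3, -0.05 for Psma7 and -0.67 for Psma4, of which none passed. Levels within the ring were uneven, from 15.2 CPM for Psma5 to 379.4 CPM for Psma2 in COX10 KO muscle and from 11.2 to 224.2 CPM for the same genes in CTL muscle.

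Among the ATPases that form the ring of the 19S base, 2 of 6 rose (33.3%), beside 6.9% of all tested genes called higher. Psmc6 (Rpt4) had 189.9, 214.8 and 249.6 CPM in COX10 KO muscle, against 68.3, 99.9 and 166.2 CPM in CTL muscle. The groups did not overlap, and the log2 fold change was 0.97 ± 0.22 (SE, adjusted p = 0.0088, edgeR's quasi-likelihood test). Psmc2 (Rpt1) had 158.1, 213.2 and 293.2 CPM in COX10 KO muscle and 108.9, 134.1 and 168.0 CPM in CTL muscle, with 1 COX10 KO library inside the CTL range and a log2 fold change of 0.68 ± 0.18 (SE, adjusted p = 0.023, edgeR's quasi-likelihood test). The ring was not uniform, since Psmc4 (Rpt3) had a log2 fold change of 0.51, Psmc1 (Rpt2) -0.07, Psmc3 (Rpt5) -0.27 and Psmc5 (Rpt6) -0.57, of which none passed the test.

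The non-ATPase subunits of the base, Psmd1 (Rpn2), Psmd2 (Rpn1) and the ubiquitin receptor Psmd4 (Rpn10), had log2 fold changes of -0.32, 0.43 and 0.05 and none passed. In the lid 1 of 8 members rose (12.5%), beside 6.9% of all tested genes called higher. A count of 1 does not set the lid apart. Psmd3 (Rpn3) had 191.1, 232.3 and 281.0 CPM in COX10 KO muscle and 116.1, 146.0 and 191.8 CPM in CTL muscle. Only the lowest COX10 KO library fell just below the highest CTL library, and the log2 fold change was 0.64 ± 0.17 (SE, adjusted p = 0.021, edgeR's quasi-likelihood test). For Psmd14 (Rpn11), the deubiquitinase of the lid, the log2 fold change was 0.44 (adjusted p = 0.21, edgeR's quasi-likelihood test), and Psmd11 (Rpn6) 0.71 (adjusted p = 0.077 in the same test). Psmd8 (Rpn12), the most abundant lid gene, averaged 350.0 CPM in COX10 KO muscle and 237.9 CPM in CTL muscle, and its log2 fold change of 0.59 did not pass. The others were 0.34 for Psmd6, 0.33 for Psmd12, -0.34 for Psmd13 and -0.43 for Psmd7.

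Of the caps and regulators, 2 of 5 rose (40.0%), beside 6.9% of all tested genes called higher. Psme3 (PA28 gamma, an activator found in the nucleus) had 69.5, 73.2 and 83.7 CPM in COX10 KO muscle and 37.8, 41.4 and 65.6 CPM in CTL muscle. Every COX10 KO library lay above every CTL library, with a log2 fold change of 0.66 ± 0.18 (SE, adjusted p = 0.021, edgeR's quasi-likelihood test). Psmf1 (PI31, a protein that binds the 20S core) had 28.3, 36.1 and 41.6 CPM in COX10 KO muscle and 17.2, 21.6 and 31.0 CPM in CTL muscle. Of its COX10 KO libraries 5 of 6 lay above all CTL libraries, and it rose by a log2 fold change of 0.67 ± 0.19 (SE, adjusted p = 0.027, edgeR's quasi-likelihood test). The interferon-inducible caps had log2 fold changes of -0.51 for Psme1 (PA28 alpha) and -0.24 for Psme2 (PA28 beta), and Psme4 (PA200) had -0.49, all with an adjusted p of 0.11 or more in edgeR's quasi-likelihood test. Psme4 was the most abundant proteasome gene in CTL muscle, at 286.4 CPM, and averaged 203.7 CPM in COX10 KO muscle.

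Summed over all 48 genes, proteasome transcripts took 4973 ± 303 CPM in COX10 KO muscle and 4147 ± 650 CPM in CTL muscle (SD, n = 6 each). Every COX10 KO library (4654 to 5477 CPM) lay above every CTL library (2838 to 4567 CPM), and the lowest CTL sum was that of CTL muscle 2, with the next at 4252 CPM. As a share of all counts, with no scaling, members made up 0.468% to 0.607% of COX10 KO and 0.347% to 0.407% of CTL libraries. By class, the ratio of mean sums, COX10 KO over CTL, was 1.58 for assembly, 1.32 for the alpha ring, 1.27 for the beta ring, 1.26 for the lid, 1.17 for the ATPases, 1.03 for the other base subunits, 0.86 for caps and regulators and 0.83 for the immunoproteasome. The groups did not overlap for assembly and the beta ring. These sums are given as a description, without a test.

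**Figure D3:**
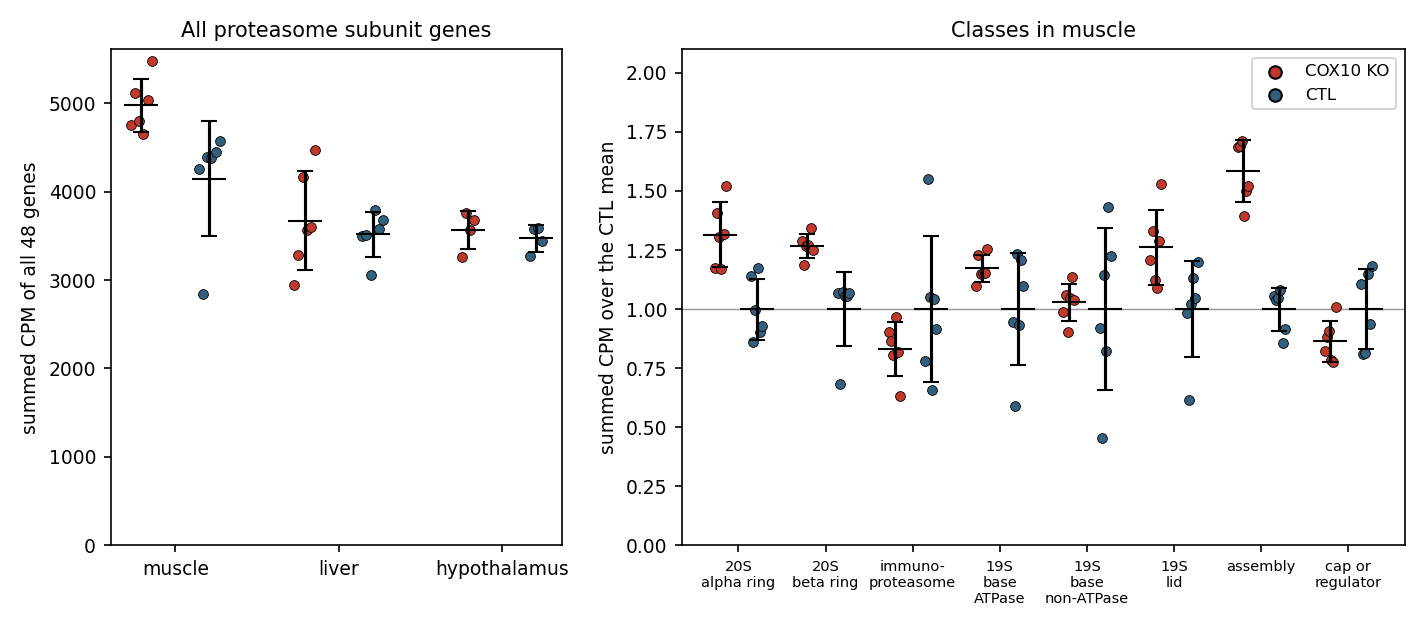
Left, summed CPM of all 48 proteasome genes in each library by tissue, COX10 KO left of CTL, with mean and SD. Right, summed CPM of each class in muscle divided by the CTL mean (vertical axis), in which assembly and the beta ring show no overlap between genotypes and the single low CTL point in several classes is CTL muscle 2.

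Among the immunoproteasome genes 0 of 3 passed the test in muscle. Psmb8 (beta5i, the inducible counterpart of Psmb5) had 3.25, 4.69 and 7.81 CPM (lowest, median and highest) in COX10 KO muscle and 3.82, 6.83 and 14.8 CPM in CTL muscle (log2 fold change -0.59, adjusted p = 0.20 in edgeR's quasi-likelihood test). Psmb9 (beta1i, the counterpart of Psmb6) had 0.0, 0.42 and 1.74 CPM in COX10 KO muscle and 0.48, 2.27 and 9.23 CPM in CTL muscle. Its log2 fold change of -1.77 ± 0.80 (SE, adjusted p = 0.15, edgeR's quasi-likelihood test) rests on 33 counts over the COX10 KO libraries and 31 over the CTL libraries. Of the 33, COX10 KO muscle 6 alone gave 22, and without it Psmb9 was called lower (log2 fold change -3.05, adjusted p = 0.026, edgeR's quasi-likelihood test). Psmb10 (beta2i, the counterpart of Psmb7) was the most abundant of the class, at 10.5, 16.5 and 22.1 CPM in COX10 KO muscle and 10.5, 15.1 and 21.0 CPM in CTL muscle, with a log2 fold change of 0.16 and full overlap.

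The balance between inducible and standard subunits was measured as the log2 ratio of each pair within a library (0.5 CPM added to both), with a 2-sided exact permutation test and adjustment over 9 ratios in 3 tissues. In muscle the ratio of Psmb8 to Psmb5 was -2.81 ± 0.52 in COX10 KO and -1.51 ± 1.13 in CTL libraries (SD, n = 6 each), a difference of -1.30 (exact p = 0.019, adjusted p = 0.058). The ratio of Psmb9 to Psmb6 was -7.67 ± 1.04 in COX10 KO and -5.71 ± 1.37 in CTL libraries (SD, n = 6 each), a difference of -1.96 (exact p = 0.015, adjusted p = 0.058). Neither ratio passed with all libraries. With 1 library left out, the Psmb8 to Psmb5 difference passed in 0 of 12 fits and the Psmb9 to Psmb6 difference in 1 of 12, that without COX10 KO muscle 6 (-2.29, adjusted p = 0.039 in the exact permutation test). Without CTL muscle 2, the shallow library with 5 Psmb9 counts, the differences were -0.92 for Psmb8 to Psmb5 and -1.46 for Psmb9 to Psmb6 (adjusted p = 0.10 each, exact permutation test). The size of the Psmb9 difference was set in part by the 0.5 CPM added, since 2 COX10 KO muscle libraries had no Psmb9 count, and it was -2.87 with 0.1 CPM and -1.19 with 2 CPM (adjusted p = 0.065 and 0.052, exact permutation test). The ratio of Psmb10 to Psmb7 differed by 0.12 (exact p = 0.79, permutation test).

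**Figure D4:**
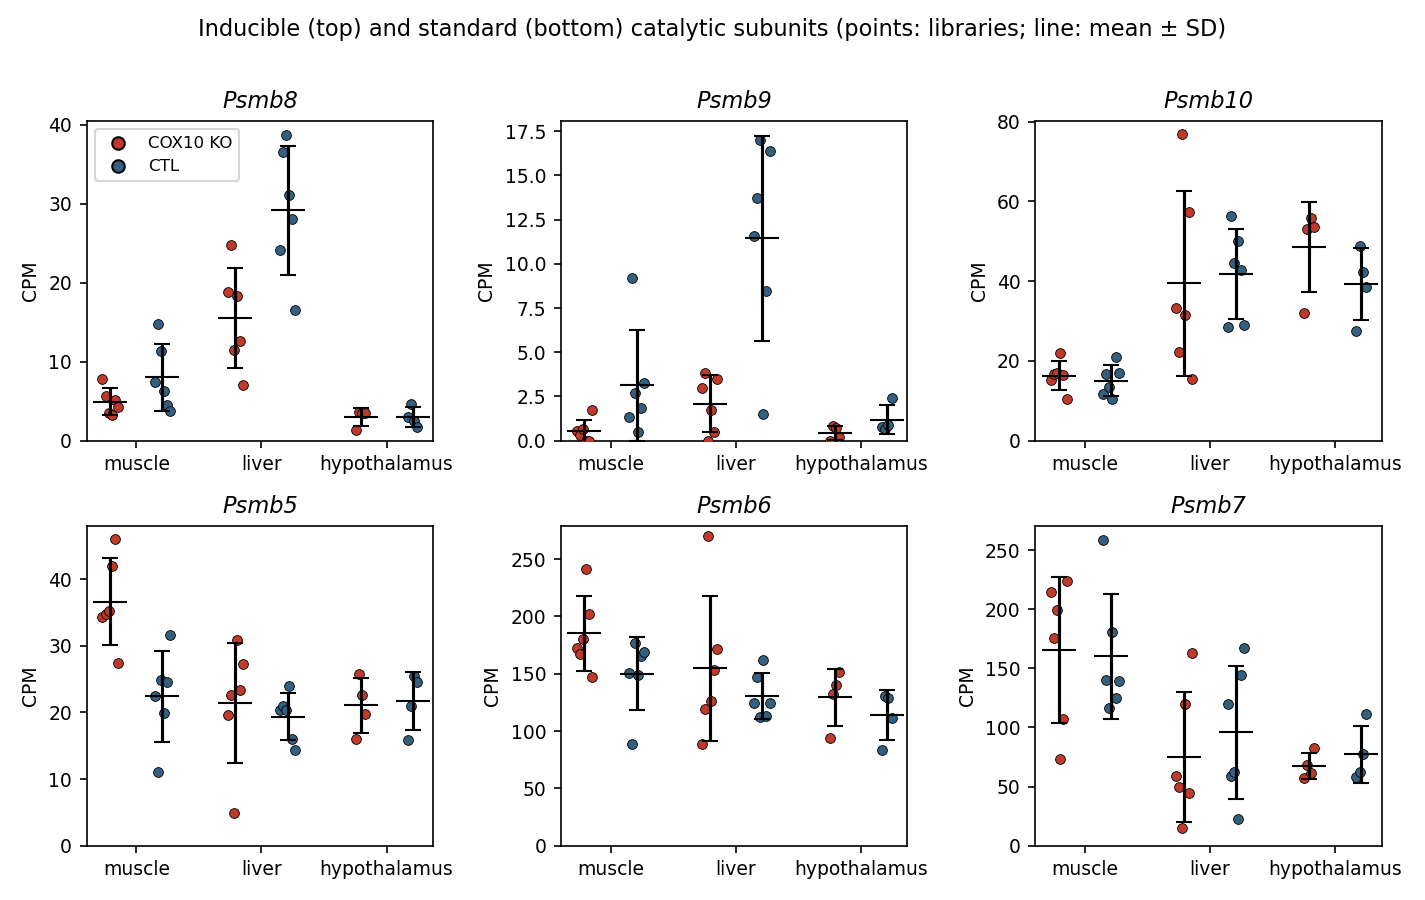
CPM of the inducible (top) and standard (bottom) proteolytic subunits in each library of muscle, liver and hypothalamus, COX10 KO left of CTL, with mean and SD (cut off at 0). Psmb8 and Psmb9 were highest in CTL liver, where the 6 libraries spanned 16.6 to 38.7 CPM and 1.53 to 17 CPM.

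In liver, 0 of 45 tested members passed the test. Of all 9707 genes tested there, 0.0206% were called higher and 0.0721% lower, and no member had COX10 KO libraries all above (0.196% of all genes) or all below (0.247% of all genes) the CTL libraries. There were 3 members with an unadjusted p under 0.05 in edgeR's quasi-likelihood test, namely Psmb8, Psmb9 and Psmd9. Of all 9707 genes 483 were under it, so the count of 3 is near the share over all genes. DESeq2 called 1 member (Psmb9), beside 19 genes higher and 36 lower of 12747. The members' median log2 fold change was -0.09, beside -0.02 over all genes, and the summed level was 3671 ± 561 CPM in COX10 KO and 3518 ± 255 CPM in CTL liver (SD, n = 6 each).

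The inducible subunits Psmb8 and Psmb9 had lower means in COX10 KO than in CTL liver, without passing the test. Psmb9 had 0.0, 2.35 and 3.84 CPM in COX10 KO liver and 1.53, 12.7 and 17 CPM in CTL liver (log2 fold change -2.23, unadjusted p = 0.00090, adjusted p = 0.20 in edgeR's quasi-likelihood test). The groups overlapped only through CTL liver 4, at 1.53 CPM, which is 1 of the libraries that did not match its labelled sex. DESeq2 gave Psmb9 an adjusted p of 0.022 and edgeR without the filter on low counts 0.0021, while leaving out CTL liver 1 and 4 gave 0.057 (edgeR's quasi-likelihood test). Psmb8 had 7.01, 15.5 and 24.7 CPM in COX10 KO liver and 16.6, 29.6 and 38.7 CPM in CTL liver (log2 fold change -0.90, adjusted p = 0.59, edgeR's quasi-likelihood test). Psmb10 had 15.4, 32.4 and 76.9 CPM in COX10 KO liver and 28.4, 43.6 and 56.4 CPM in CTL liver, and its COX10 KO libraries spread on both sides of the CTL range.

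Macrophage markers had lower means in COX10 KO liver too, without passing the test. All 10 listed macrophage markers had a negative log2 fold change there (median -1.16), where 47.18% of all tested genes had a positive one. Of the 10, 0 passed the test, and their summed level was 174.2 to 528.7 CPM in COX10 KO and 336.9 to 1213 CPM in CTL liver. Adgre1, which encodes F4/80, averaged 6.48 CPM in COX10 KO and 22.9 CPM in CTL liver. Genes of antigen presentation and interferon response had a median log2 fold change of -0.61 with 0 of 10 tested members called. Lymphocyte markers summed to at most 5.97 CPM in COX10 KO and 11.6 CPM in CTL liver. The part of these cells in the Psmb8 and Psmb9 values was not tested.

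The standard counterparts in liver overlapped between genotypes. Psmb5 had 4.91, 22.9 and 30.9 CPM in COX10 KO liver and 14.4, 20.4 and 23.96 CPM in CTL liver, Psmb6 averaged 154.8 CPM in COX10 KO and 130.8 CPM in CTL liver, and Psmb7 averaged 75.0 CPM in COX10 KO and 95.8 CPM in CTL liver. The lowest Psmb5 value belonged to COX10 KO liver 3, a shallow library of 674311 counts. The log2 ratio of Psmb9 to Psmb6 was -6.18 ± 1.70 in COX10 KO and -3.72 ± 1.32 in CTL liver (SD, n = 6 each), a difference of -2.46 (exact p = 0.017, adjusted p = 0.058). The ratio of Psmb8 to Psmb5 differed by -0.93 (exact permutation p = 0.056, adjusted p = 0.10) and that of Psmb10 to Psmb7 by 0.20 (exact permutation p = 0.84). With 1 library left out, each of the first 2 ratios passed in 1 of 12 fits (adjusted p = 0.039, exact permutation test), at -2.98 for Psmb9 to Psmb6 without CTL liver 4 and -1.23 for Psmb8 to Psmb5 without COX10 KO liver 3. At the other end, Psmb9 to Psmb6 was -1.88 without COX10 KO liver 3 (adjusted p = 0.078) and Psmb8 to Psmb5 -0.62 without COX10 KO liver 6 (adjusted p = 0.20, exact permutation test). With 0.1 and 2 CPM added in place of 0.5 CPM, the Psmb9 to Psmb6 difference in liver was -3.00 and -1.81.

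In hypothalamus, 0 of 44 tested members passed the test, and 0 members reached an unadjusted p under 0.05. Of all 13504 genes tested there, 0.0% were called higher and 0.0% lower, with 211 under an unadjusted p of 0.05 and 0 called by DESeq2. Log2 fold changes of the members lay between -0.31 (Psma5) and 0.31 (Psmb10). Summed levels were 3567 ± 218 CPM in COX10 KO and 3470 ± 151 CPM in CTL hypothalamus (SD, n = 4 each).

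Psmb10 had 31.9, 53.0, 55.8 and 53.5 CPM in the COX10 KO hypothalamus libraries 1 to 4, and 27.5, 48.9, 42.3 and 38.5 CPM in the CTL libraries. Psmb8 had 1.30, 3.61, 3.54 and 3.57 CPM in COX10 KO and 2.96, 4.69, 2.504 and 1.70 CPM in CTL hypothalamus, and Psmb9 had 0.0, 0.83, 0.71 and 0.22 CPM in COX10 KO and 0.80, 0.64, 0.91 and 2.43 CPM in CTL hypothalamus. All of these overlapped between genotypes, and Psmb9, with 8 counts over the COX10 KO and 34 over the CTL libraries, was too low to be tested. Libraries of the same number were read as pairs in this tissue, though no label states it. COX10 KO library 4 correlated better with a CTL library of another number than with its own (0.481 against 0.316). Read as pairs, Psmb10 was higher in the COX10 KO library in 4 of 4, Psmb8 in 2 and Psmb9 in 1. With the number as a block the Psmb10 log2 fold change was 0.29 (adjusted p = 0.51, edgeR's quasi-likelihood test). The standard subunits overlapped as well. Psmb5 had 16.1, 25.8, 22.7 and 19.8 CPM in COX10 KO and 15.8, 20.9, 25.5 and 24.6 CPM in CTL hypothalamus, Psmb6 had 93.7, 132.4, 140.0 and 151.6 CPM in COX10 KO and 83.9, 130.6, 129.1 and 111.2 CPM in CTL hypothalamus, and Psmb7 had 57.3, 68.3, 61.2 and 82.3 CPM in COX10 KO and 58.4, 62.5, 77.6 and 111.5 CPM in CTL hypothalamus. Psmb6 was higher in the COX10 KO library in 4 of 4 pairs (log2 fold change 0.18 and adjusted p = 0.57 with the block, edgeR's quasi-likelihood test), Psmb5 in 2 and Psmb7 in 1. The 3 log2 ratios of inducible to standard subunits differed by 0.04 (Psmb8 to Psmb5), -1.03 (Psmb9 to Psmb6) and 0.47 (Psmb10 to Psmb7), at exact permutation p-values of 0.94, 0.057 and 0.17, where 4 libraries against 4 cannot go below 0.029. That test did not use the pairs, and with 0.1 and 2 CPM added the Psmb9 to Psmb6 difference in hypothalamus was -1.72 and -0.55.

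In a joint fit of muscle and liver, 1 of 45 members, Psmg4, had an interaction of genotype and tissue. Of all 11373 genes, 1.1% had a higher and 1.08% a lower effect in muscle. A count of 1 is about what these shares give, so it does not set the proteasome genes apart. The Psmg4 effect in muscle exceeded that in liver by 1.57 ± 0.28 on the log2 scale (SE, adjusted p = 0.0032, edgeR's quasi-likelihood test). In liver Psmg4 had 13.1, 15.1 and 19.6 CPM in COX10 KO and 12.8, 21.1 and 26.0 CPM in CTL libraries, with full overlap. In hypothalamus it had 15.8, 19.2, 21.95 and 22.3 CPM in COX10 KO and 12.2, 22.6, 17.3 and 12.9 CPM in CTL libraries, again with overlap. Psmg4 was thus at its lowest mean in CTL muscle (11.4 CPM) and at its highest in COX10 KO muscle (26.0 CPM), on levels normalized separately in each tissue. DESeq2 called 4 members in this interaction, namely Psmg4, Psmg2 and Psmb1 with a larger and Psmd9 with a smaller effect in muscle. Over all genes it called 278 higher and 428 lower of 13875. The edgeR fit without the filter on low counts called 2 members, beside 220 genes higher and 199 lower of 23478. The fit without COX10 KO liver 4 called 2 members, beside 143 genes higher and 149 lower of 11635. For Psmg2 the difference was 1.54 and for Psmd9 -1.18, both short of the threshold in the edgeR fit (adjusted p = 0.084 and 0.099).

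**Figure D5:**
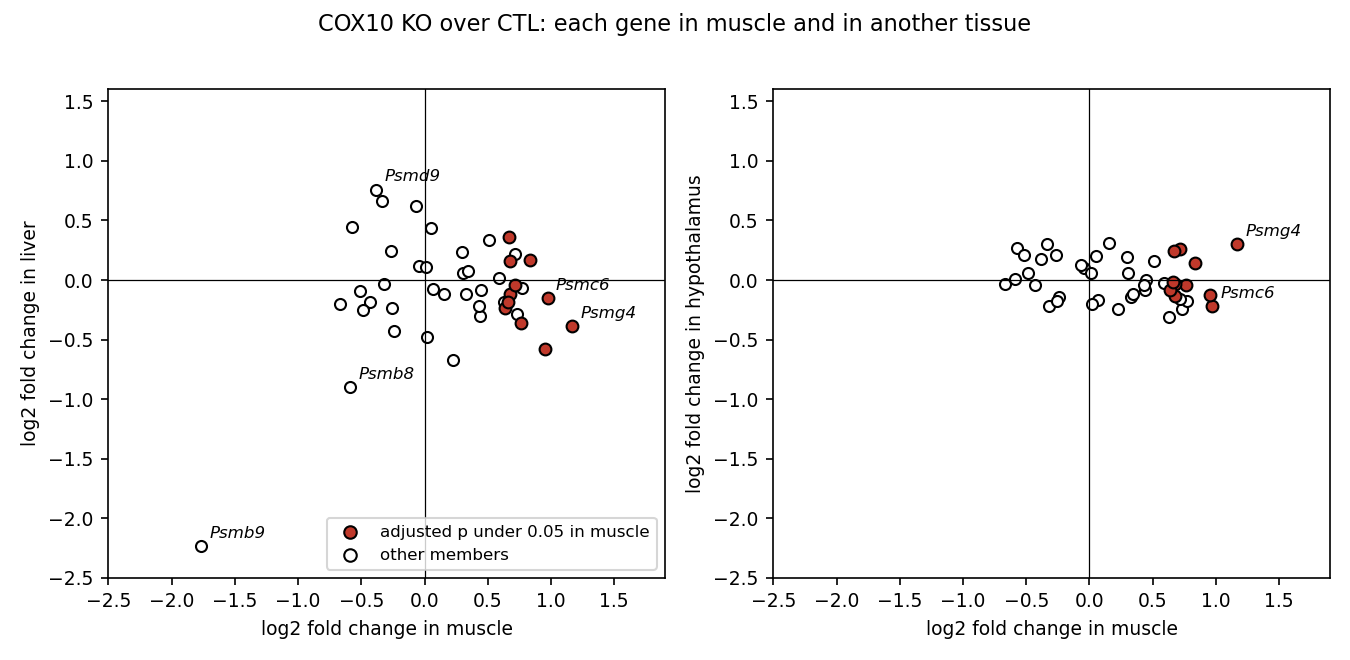
Log2 fold change of each tested member in muscle (horizontal axis) and in liver or hypothalamus (vertical axes), COX10 KO over CTL, with the 11 genes called in muscle filled. Psmg4 has 1.17 in muscle, -0.39 in liver and 0.30 in hypothalamus, and members in hypothalamus stay between -0.31 and 0.31.

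In muscle 0 of 45 members had an interaction of genotype and sex. Of the 12065 genes in that fit 0.0% were called in edgeR's quasi-likelihood test, with 459 under an unadjusted p of 0.05, and by DESeq2 0 members were called. The tissue-restricted core genes were close to silent. Psma8, the testis alpha subunit, had 46 counts in 15 of the 32 libraries, and Psmb11, the thymus beta subunit, had 12 counts in 5 libraries, so neither was tested.

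Proteins that bind the proteasome were followed in a separate list of 20 genes, of which 19 were found and tested. In COX10 KO muscle 2 of the 19 rose and 1 fell, beside 6.9% and 7.43% of all tested genes, with a median log2 fold change of 0.24. Both counts are near these shares. Zfand2a (AIRAP, a stress-induced protein that binds the 19S particle) averaged 22.9 CPM in COX10 KO and 5.23 CPM in CTL muscle (log2 fold change 1.99, adjusted p = 0.0055, edgeR's quasi-likelihood test), and Usp14, a deubiquitinase of the base, averaged 71.6 CPM in COX10 KO and 46.2 CPM in CTL muscle (log2 fold change 0.62, adjusted p = 0.027, edgeR's quasi-likelihood test). Ecpas (ECM29, an adaptor of the proteasome) averaged 49.7 CPM in COX10 KO and 86.9 CPM in CTL muscle and fell by 0.81 on the log2 scale (adjusted p = 0.023, edgeR's quasi-likelihood test). Pomp, the chaperone that closes the core, had a log2 fold change of 0.0042. Of the transcription regulators of proteasome genes, 0 of 5 tested passed, and Nfe2l1, which drives their expression when proteolysis is impaired, averaged 317.4 CPM in COX10 KO and 210.0 CPM in CTL muscle (log2 fold change 0.59, adjusted p = 0.16, edgeR's quasi-likelihood test).

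Ubiquitin and E1 genes were not called either (0 of 5 tested, median log2 fold change 0.38). Among 6 muscle ubiquitin ligases 1 fell and 0 rose, where 7.43% of all tested genes were called lower and 6.9% higher. Asb2 averaged 152.2 CPM in COX10 KO and 444.4 CPM in CTL muscle (log2 fold change -1.55, adjusted p = 0.0014, edgeR's quasi-likelihood test). The atrophy ligases were spread widely over the COX10 KO libraries. Trim63 (MuRF1) had 196.4, 374.9 and 2379 CPM in COX10 KO muscle and 186.4, 364.3 and 550.0 CPM in CTL muscle, and Fbxo32 (atrogin-1) had 231.1, 303.1 and 1289 CPM in COX10 KO muscle and 166.1, 307.9 and 516.9 CPM in CTL muscle. Their medians were close between genotypes and neither passed the test (adjusted p = 0.18 and 0.37, edgeR's quasi-likelihood test). In liver and hypothalamus 0 genes of these lists were called.

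Markers of cell types differed between genotypes in muscle as well. All 5 muscle fibre markers had a negative log2 fold change (median -0.73), of which Tnnt3, a troponin of fast fibres, fell (-1.03, adjusted p = 0.024) and Ckm, the muscle creatine kinase, did not pass (-1.05, adjusted p = 0.052, edgeR's quasi-likelihood test). Of the neuronal markers Syt1 fell, at a mean of 0.83 CPM in COX10 KO and 6.77 CPM in CTL muscle (log2 fold change -2.73, adjusted p = 0.016, edgeR's quasi-likelihood test), and Snap25 did not pass. The 2 markers summed to 0.32 to 3.58 CPM in COX10 KO and 0.45 to 29.5 CPM in CTL muscle, so the levels were low and uneven. Syt1 is not limited to neurons here, since it averaged 40.7 CPM in CTL liver. The part of CTL muscle 2, the shallow library with 1648 CPM of Alb, in the Syt1 fall was not tested. Of 10 macrophage markers 4 rose in COX10 KO muscle (Cd68, Ctss, Lyz2 and C1qa) and 0 fell, beside 6.9% and 7.43% of all tested genes. The summed level of the 10 was 282.5 to 674.4 CPM in COX10 KO and 124.9 to 527.7 CPM in CTL muscle. Cd68 had 43.9 to 74.1 CPM in COX10 KO and 1.35 to 6.00 CPM in CTL libraries, while Adgre1 had 2.05 to 9.93 CPM in COX10 KO and 1.64 to 7.64 CPM in CTL libraries. Lymphocyte markers were at or near 0, with a sum of at most 0.51 CPM in COX10 KO and 1.85 CPM in CTL muscle, and endothelial markers (0 of 4 called) summed to 141.6 to 231.2 CPM in COX10 KO and 154.5 to 212.4 CPM in CTL muscle. Erythroid markers (0 of 5 called) summed to 1053 to 2590 CPM in COX10 KO and 1175 to 11300 CPM in CTL muscle. The part of these cells in the rise of proteasome genes was not tested. Among genes of antigen presentation and interferon response 0 of 10 tested passed in muscle, with a median log2 fold change of -0.42.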

How the data were processed

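RNA from calf muscle, liver and hypothalamus was sequenced by the authors as 3′ libraries (QuantSeq, forward strand). Per the labels and the study's methods, the authors trimmed reads with BBDuk, mapped them with STAR 2.5.0a (GRCm38.p6) and used HTSeq 0.6.1 to assign them to genes. The deposited values are raw counts per gene. Of 55401 identifiers, 55141 were matched to a symbol in the GENCODE annotation of GRCm38.

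Each tissue was fitted alone with edgeR 4.0.16 in R 4.3.3 (trimmed mean of M values, filterByExpr, quasi-likelihood F test, Benjamini-Hochberg adjustment over all tested genes, threshold 0.05). Sex was a covariate in muscle and liver. Muscle and liver were joined for the interaction of genotype and tissue. Standard errors come from the F statistic. Ratios were tested in Python 3.11.15 with scipy 1.17.1. The fits were tested on simulated data. Promoter windows are those of RefSeq on GRCm38.p6.

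The members and lists were chosen with earlier results of these data known. By rule, values over libraries were given for the proteolytic subunits in each tissue, for the member of each class with the largest rise or fall among those called in muscle and for members called in the interaction, and from other lists up to 4 called genes were named. The remaining called members, and Pomp, Nfe2l1, Trim63, Fbxo32, Adgre1, Ckm and Snap25, were added after their values were seen. Of the 48 members, 9 have another annotated gene on the same strand, for which HTSeq can leave shared reads uncounted. Alternatives were DESeq2 1.42.0, relative log expression factors, library size alone, no filter, at least 10 counts in every library, no sex term, each sex alone, the replicate number as a block, muscle libraries thinned to at most 1734571 counts, other pseudocounts (0.1 and 2 CPM) for ratios, CTL liver 1 and 4 left out, and each library left out. Leaving out both hypothalamus libraries numbered 1 was added after seeing the data. No label states that replicate numbers pair the libraries. In hypothalamus, deviations from the group means correlated between COX10 KO and CTL libraries of the same number at 0.813, 0.211, 0.408 and 0.316. COX10 KO hypothalamus 4 correlated better with a CTL library of another number (0.481), so the pairing is uncertain. The numbers were read as pairs there, and in muscle and liver they were not. Reads carry no molecular identifiers, so the floor of 3 counts covers counting error only.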

Additional observations from a re-analysis of the deposited data

Results flagged for a closer look

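Outlying libraries were looked for in 60 groups of values (the genes given per library, by genotype and tissue), of which chance flags about 1 in 20, and 6 groups held one. In muscle, Psmb6 had 88.6 CPM in CTL 2, where the other CTL libraries had 149.2 to 176.7 CPM, and Psmb9 had 9.23 CPM in the same library, where the others had 0.48 to 3.27 CPM. That Psmb9 level rests on 5 counts. Psmb9 had 1.74 CPM in COX10 KO muscle 6, from 22 counts, where the others had 0.0 to 0.64 CPM. In hypothalamus, COX10 KO 1 was low for Psmb8 (1.30 CPM, from 6 counts, against 3.54 to 3.61 CPM in the others) and for Psmb10 (31.9 CPM, against 53.0 to 55.8 CPM in the others), and CTL 4 was high for Psmb9 (2.43 CPM, from 10 counts, against 0.64 to 0.91 CPM in the others). CTL hypothalamus 1 was also the lowest of its group for Psmb10, at 27.5 CPM.

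The genotype effect on Psmg4 differed between tissues, by 1.57 on the log2 scale in muscle minus liver in the joint edgeR fit. In that fit 1.1% of all 11373 genes had a higher and 1.08% a lower effect in muscle.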

How the results depend on the processing

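The count of 11 called members in muscle was 19 with library size alone, which shifted the median log2 fold change of all genes to 0.17, from -0.03 with scaling. It was 14 with DESeq2, 13 without a filter, 13 without the sex term, 11 with relative log expression factors, 9 with at least 10 counts in every library and 8 with thinned libraries, and 0 members were lower in any of these. All 11 were among the calls of DESeq2. It was 1 in females alone and 0 in males alone. Leaving out 1 library gave 5 to 12 calls, and Psmb1, Psmc6, Psmg2 and Psmg4 were called in all 12 such fits. With the replicate number as a block it was 5 (Psmb1, Psmc6, Psme3, Psmg2 and Psmg4). Higher calls over all genes moved too, from 803 of 11636 in the main fit. They were 1220 of 11636 with library size alone and 533 of 12703 with the block. DESeq2 gave 1024 of 14780, no filter 1061 of 21525 and no sex term 910 of 10950. Thinned libraries gave 704 of 9195, and at least 10 counts in every library 563 of 4784. Same-numbered muscle libraries correlated at -0.176 to 0.238 and those of liver at -0.523 to 0.49, and not every library correlated best with its own number. The block called 0 members in liver and 0 in hypothalamus.

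In liver the count of 0 became 1 (Psmb9) with DESeq2 and 1 without a filter. Over all genes these fits called 36 of 12747 and 118 of 20292 lower. Members with an effect that differed between muscle and liver numbered 4 with DESeq2, 2 without a filter and 1 to 2 with 1 library left out. Over all genes, DESeq2 called 278 higher and 428 lower of 13875. The fit without a filter called 220 higher and 199 lower of 23478, and the main fit 125 and 123 of 11373. Without COX10 KO liver 4, which gave the count of 2, it was 143 higher and 149 lower of 11635. With 1 library left out, 3 log2 ratio differences passed in 1 of 12 fits each: Psmb9 to Psmb6 ranged over -2.29 to -1.46 in muscle and -2.98 to -1.88 in liver, and Psmb8 to Psmb5 over -1.23 to -0.62 in liver. Those of Psmb10 to Psmb7 changed sign, over -0.18 to 0.35 in muscle and -0.42 to 0.72 in liver, as did that of Psmb8 to Psmb5 in hypothalamus, over -0.22 to 0.27.

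Some members that were not called changed the sign of their log2 fold change. With library size alone these were Psma7 in muscle (0.17), Psmc1 in muscle (0.147). Without a filter they were Psma7 in muscle (0.0122), Psmb8 in hypothalamus (-0.0177). With the replicate block they were Psma7 in muscle (0.0131), Psmc1 in muscle (0.0545), Psmb8 in hypothalamus (-0.0489). In females alone they were Psma7 in muscle (0.0668), Psmc1 in muscle (0.148), Psmd13 in muscle (0.0256), Psme2 in muscle (0.0334), Psmg1 in muscle (0.00035), Psmb10 in liver (0.0136), Psmb5 in liver (-0.273). With relative log expression factors it was Psmb4 in muscle (-1.45e-05). In males alone they were Psmb7 in muscle (-0.106), Psmd4 in muscle (-0.0733). With thinned libraries they were Psmb7 in muscle (-0.0188), Psmb10 in muscle (-0.00239), Psmc1 in muscle (0.0154). With 1 library left out, the log2 fold change spanned 0 for Psma7 in muscle (-0.111 to 0.0904), Psmb4 in muscle (-0.0447 to 0.174), Psmb7 in muscle (-0.167 to 0.196), Psmc1 in muscle (-0.182 to 0.135), Psmd4 in muscle (-0.0377 to 0.219), Psmg1 in muscle (-0.838 to 0.134), Psmb10 in liver (-0.397 to 0.0793), Psmb6 in liver (-0.0309 to 0.357), Psmb8 in hypothalamus (-0.153 to 0.27), Psmb5 in hypothalamus (-0.185 to 0.0747), Psmb7 in hypothalamus (-0.339 to 0.0256).

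Leaving out both hypothalamus libraries numbered 1, an alternative chosen after seeing the data, called 0 members. Depth limits Psmb9, which rests on 33 counts over the COX10 KO and 31 over the CTL muscle libraries, and Psmg3, Psma8 and Psmb11 had too few counts to be tested in muscle. With 0.1 or 2 CPM added, no ratio passed.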
